A study of Mus musculus with 8 samples.

Results

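The 9 genes described here encode the cell-surface receptors, ligand antagonists, signal transducer and transcription factors of the hedgehog pathway: Ptch1, Hhip, Boc, Cdon, Gas1, Smo, Gli1, Gli2 and Gli3. They were chosen by symbol as parts of 1 pathway, with earlier results of these data known. All 9 were found among the 25509 genes of the deposited table and passed the low-count filter that left 14524 genes to be tested. RNA came from 8 libraries of flow-sorted lung cells of 4 wild-type C57Bl6/J mice, numbered 2, 7, 8 and 10, of unstated age. Cells of a digested lung sorted as negative for CD45, CD326 and CD31, the surface antigens of leukocytes, epithelium and endothelium, were divided into a CD249+ and a CD249− fraction, so each mouse gave 1 library of each kind. No treatment is given for either fraction, and the cells within each fraction are a mixture of types. The comparison asks how sorted lung cells, labelled fibroblasts, with surface CD249 differ from those without it.

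In hedgehog signalling the receptor Ptch1 holds the transducer Smo inactive until a hedgehog ligand binds, after which Smo acts through the primary cilium to turn Gli proteins from repressors into activators of transcription. Boc, Cdon and Gas1 are co-receptors that present the ligand to Ptch1, and Hhip binds the ligand at the cell surface and blocks it. Ptch1, Hhip and Gli1 are themselves induced by the pathway in many tissues, which makes them common readouts of its activity. In the lung the ligand comes mainly from epithelium and the responding cells are mesenchymal.

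Hhip and Gli2 had the largest increases of the 9 genes, and their promoter sequences, from RefSeq on GRCm38.p6, are shown for that reason. Each runs from 250 bases before to 50 bases after the annotated start, 5′ to 3′ on the strand of the gene. Capitals mark a 7-base core of the Gli recognition sequence, ACCACCC or its reverse complement GGGTGGT, wherever it occurs.
Gli2, chr1:119053570-119053869, minus strand: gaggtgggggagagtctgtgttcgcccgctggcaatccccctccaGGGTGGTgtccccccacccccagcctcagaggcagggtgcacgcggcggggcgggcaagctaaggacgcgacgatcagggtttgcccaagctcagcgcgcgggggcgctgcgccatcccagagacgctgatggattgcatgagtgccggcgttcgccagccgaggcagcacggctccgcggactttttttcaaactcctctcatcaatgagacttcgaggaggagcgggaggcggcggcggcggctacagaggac
Hhip, chr8:80057959-80058258, minus strand: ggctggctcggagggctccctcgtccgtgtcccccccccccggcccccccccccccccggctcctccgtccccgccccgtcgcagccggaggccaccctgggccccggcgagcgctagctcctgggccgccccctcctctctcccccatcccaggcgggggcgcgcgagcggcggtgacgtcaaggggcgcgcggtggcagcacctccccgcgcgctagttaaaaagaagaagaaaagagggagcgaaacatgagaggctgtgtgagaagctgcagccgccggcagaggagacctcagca
Promoter sequences were matched for 7 of the 9 genes, all but Gli1 and Boc. The full 9-base sequence GACCACCCA, searched on both strands, was in none of the 7 and in 0.253% of 32851 mouse promoters of this length. The core, which lies within the full sequence, was in the Gli2 promoter alone among the 7, starting 205 bases before the start of the gene, and in 4.61% of all promoters. The 7 promoters held 3 to 47 CpG dinucleotides, against a median of 7.0 over all promoters. The RefSeq starts used for Cdon and Ptch1, which had the fewest and the most, and for Gli3 lie within the gene bodies given below and not at their outer ends. The whole Gas1 sequence lies outside the gene body given below.

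CD249+ cells had higher levels of 8 of the 9 genes, and no gene was called lower. The call rests on edgeR's quasi-likelihood test at an adjusted p under 0.05 over all genes tested, by which 16.9% of all tested genes were called higher, 13.9% lower and 30.8% in either direction. For 8 genes the level was higher in CD249+ cells of all 4 mice, and for 7 genes all 4 CD249+ libraries lay above all 4 CD249− libraries, a separation shown by 17.8% of all tested genes. The median log2 fold change was 1.61 over the 9 genes and -0.02 over all genes tested. In these bulk libraries fewer cells expressing a gene and less RNA of it per cell cannot be told apart.

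Enpep, the gene of the sort antigen CD249, stood at 8.98 ± 5.61 CPM, counts scaled to the depth of the library, in CD249− and 241 ± 64.8 CPM in CD249+ cells (SD, n = 4), in the direction of the labels. The endothelial markers were all present in both fractions and all 12 fell, with a summed level of 14160 to 18730 CPM in CD249− and 4443 to 8432 CPM in CD249+ libraries. Plvap, Cldn5 and Pecam1 were the most abundant of them. Pecam1 encodes CD31, by which cells were to be removed in the sort, yet it stood at 1499 to 2030 CPM in CD249− and 448 to 958 CPM in CD249+ libraries, so its level goes against the stated gate in both fractions. The fibroblast genes named next lay on both sides of the CD249− mean of Pecam1 (1666 CPM), and all lay below that of Plvap (3605 CPM). In CD249− libraries the alveolar fibroblast markers summed to only 477.6 to 955.4 CPM, the adventitial ones to 4366 to 6209 CPM. Pdgfra (143 CPM) and Col1a1 (1349 CPM) had means below it in CD249− cells, and Col1a2 (1794 CPM), Dcn (1883 CPM) and Col3a1 (3184 CPM) had means above it. All 8 collagen genes used below as a reference rose, from a sum of 4223 to 10790 CPM to a sum of 14070 to 24850 CPM. Leukocyte markers (2 of 10 lower, 8 not called) summed to 1520 to 2845 CPM in CD249− and 1246 to 3474 CPM in CD249+ libraries. Lyz2, with means of 1380 and 1675 CPM, led this sum and had a log2 fold change of 0.28. Every other leukocyte marker had a negative log2 fold change, from -0.57 (Cd68) to -1.46 (Cd3e). Of mesothelial markers 4 of 5 fell, led by Msln. Of 11 epithelial markers 10 were tested and 3 rose, Sftpc, Sftpa1 and Sftpb, and the list summed to 178.5 to 833.7 CPM in CD249− and 498 to 10250 CPM in CD249+ libraries. The highest sum is that of mouse 10, where Sftpc stood at 7547 CPM against 320 to 781 CPM in the other CD249+ libraries. Of 8 genes that tissue dissociation induces, 3 rose (Fos, Junb and Egr1). The part of these differences in the results on hedgehog genes was not tested. The comparison with collagen genes below cannot separate it, because those genes themselves rose by unlike amounts, from 1.265 (Col1a2) to 2.72 (Col6a3) in log2 by edgeR.

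**Figure D1:**
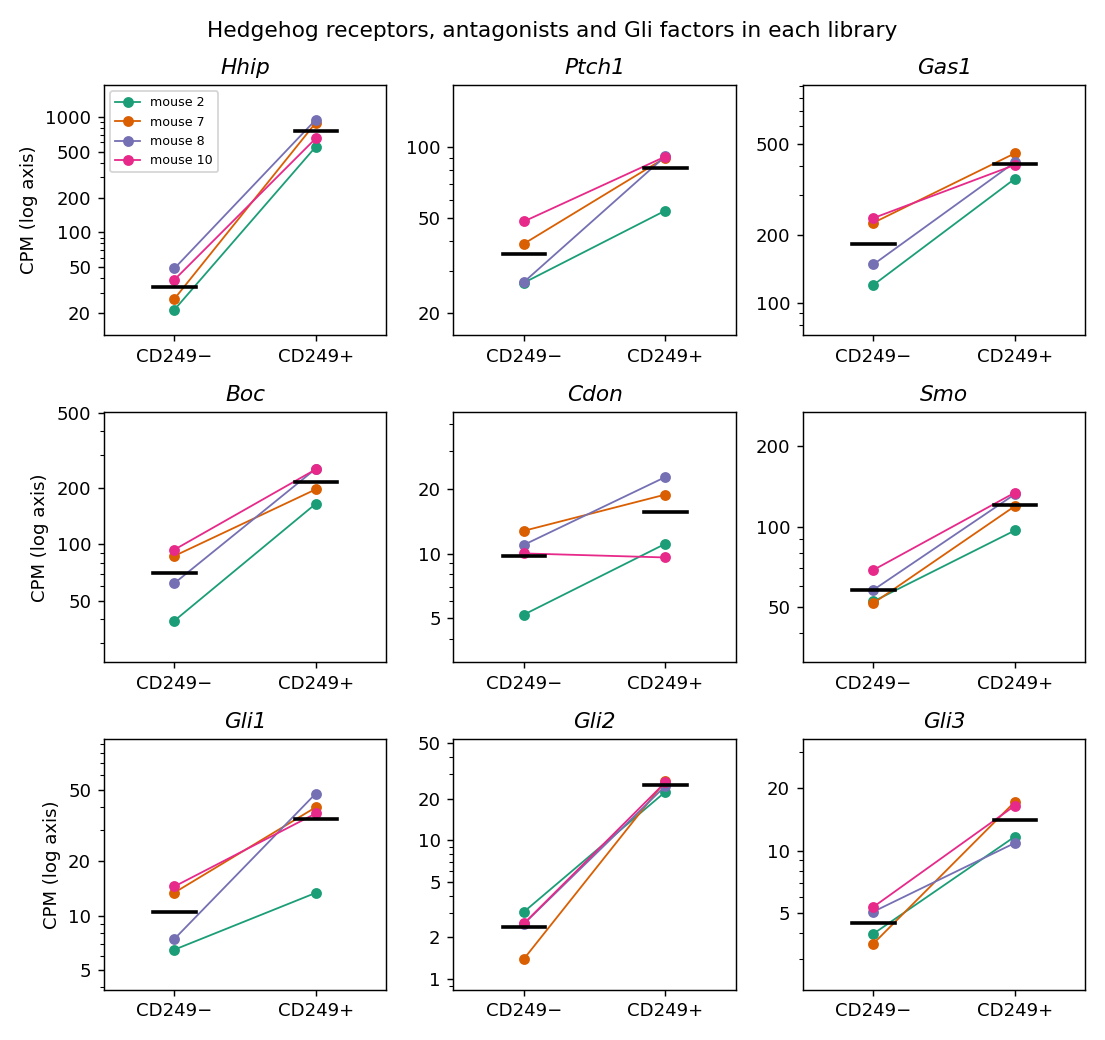
Level of each of the 9 genes in CPM (log axis, a separate range for each gene) in the CD249− and CD249+ library of each mouse. Lines join the libraries of a mouse and black bars are means of 4; every line rises except that of Cdon in mouse 10, and Hhip and Gli2 have the steepest lines.

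The antagonist Hhip (ENSMUSG00000064325.3, chromosome 8, 79965851 to 80058006, minus strand, GRCm38) rose most. For mice 2, 7, 8 and 10 in turn, the CD249− level was 21.4, 26.5, 48.7 and 38.8 CPM and the CD249+ level 550.3, 888, 943 and 650.3 CPM. The lowest CD249+ library thus stood far above the highest CD249− library, and the order of the mice differed between the fractions. This was a log2 fold change of 4.49 (SE 0.30, adjusted p = 8.39e-06 by edgeR's quasi-likelihood test), a 22.4-fold difference, and the 4 mice taken singly gave differences of 4.05 to 5.04 in log2(CPM + 0.5).

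Ptch1 (ENSMUSG00000021466.11, chromosome 13, 63508328 to 63573598, minus strand, GRCm38), the receptor that restrains Smo and the other pathway-induced inhibitor, rose much less. In the order of mice 2, 7, 8 and 10, the CD249− libraries held 26.8, 39.1, 26.9 and 48.5 CPM, and the CD249+ libraries 53.9, 90.1, 91.4 and 91.1 CPM. The CD249+ libraries of mice 7, 8 and 10 were nearly equal and that of mouse 2 was lower, yet above every CD249− library. Its log2 fold change was 1.21 (SE 0.23, adjusted p = 0.00345).

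The difference between the antagonists was tested within libraries, where the scaling cancels. The log2 ratio of Hhip to Ptch1 was -0.086 ± 0.628 in CD249− cells and 3.21 ± 0.253 in CD249+ cells (SD, n = 4, difference 3.29, two-sided exact permutation p = 0.0286, the smallest that 4 against 4 allows, adjusted p = 0.0429 over 6 ratios). Hhip and Ptch1 counts were thus about equal in CD249− cells, while Hhip counts were 9.23 times those of Ptch1 in CD249+ cells, without regard to gene length. The ratio was higher in CD249+ cells of all 4 mice.

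Of the co-receptors, Boc (ENSMUSG00000022687.11, chromosome 16, 44485049 to 44558897, minus strand, GRCm38), an immunoglobulin-family protein, rose most. Mice 2, 7, 8 and 10 had CD249− levels of 39.3, 86.9, 62.2 and 93.8 CPM and CD249+ levels of 164.5, 196, 252 and 251 CPM. The groups did not overlap and mouse 2 was lowest in both. Boc had a log2 fold change of 1.61 (SE 0.26, adjusted p = 0.00123).

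Gas1 (ENSMUSG00000052957.7, chromosome 13, 60174405 to 60177365, minus strand, GRCm38), a lipid-anchored co-receptor, was the most abundant of the 9 per length in both fractions. CD249− cells held 120.2, 226, 148 and 237 CPM in mice 2, 7, 8 and 10, and CD249+ cells 352, 456, 417 and 406 CPM. All CD249+ libraries were above all CD249− libraries, with mouse 2 again lowest in both fractions. Gas1 had a log2 fold change of 1.16 (SE 0.21, adjusted p = 0.00241).

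Cdon (ENSMUSG00000038119.14, chromosome 9, 35421128 to 35507652, plus strand, GRCm38), the close relative of Boc, was the 1 gene not called. CD249− cells of mice 2, 7, 8 and 10 held 5.21, 12.7, 10.97 and 10.01 CPM, and CD249+ cells 11.1, 18.8, 22.6 and 9.59 CPM. The groups overlapped: the level was higher in CD249+ cells of mice 2, 7 and 8 and slightly lower in those of mouse 10. The estimate was a log2 fold change of 0.67 (SE 0.34, adjusted p = 0.167), with a 95% interval of -0.089 to 1.43 that holds both no change and a change as large as that of Gas1. It was not called in any of 18 alternative settings, with adjusted p = 0.0561 to 0.421.

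The changes of Boc and Cdon were compared in the same way. The log2 ratio of Boc to Cdon went from 2.79 ± 0.294 in CD249− to 3.82 ± 0.584 in CD249+ cells (SD, n = 4, difference 1.03, exact permutation p = 0.0286, adjusted p = 0.0429) and was higher in CD249+ cells of all 4 mice, but it was not called when paired by mouse (exact sign-flip, adjusted p = 0.15) or with a pseudocount of 2 CPM (adjusted p = 0.0571). The log2 ratio of Gas1 to Cdon was also higher in CD249+ cells of all 4 mice, by 0.58 on average, but its groups overlapped (exact permutation p = 0.114, adjusted p = 0.137).

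The transducer Smo (ENSMUSG00000001761.7, chromosome 6, 29735503 to 29761365, plus strand, GRCm38) had the smallest called change and the smallest standard error of the 9. Mice 2, 7, 8 and 10 gave 52.6, 51.9, 58.1 and 69.0 CPM in the CD249− fraction, against 96.8, 119, 132 and 134 CPM in the CD249+ fraction. The groups did not overlap. Smo had a log2 fold change of 1.06 (SE 0.14, adjusted p = 0.000328), and the differences of single mice lay between 0.87 and 1.20. The log2 ratio of Smo to Ptch1 was 0.74 ± 0.339 in CD249− and 0.58 ± 0.184 in CD249+ cells (SD, n = 4), a difference of -0.16 that was negative in mice 2 and 8 and at or above 0 in mice 7 and 10 (exact permutation p = 0.486, adjusted p = 0.486).

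The Gli factors all rose, by different amounts. Gli2 (ENSMUSG00000048402.14, chromosome 1, 118834132 to 119053619, minus strand, GRCm38), the main activator in most tissues, was the least abundant of the 9 genes in CD249− cells, with 3.05, 1.40, 2.50 and 2.52 CPM for mice 2, 7, 8 and 10. The CD249+ libraries of these mice held 22.4, 26.8, 24.6 and 26.2 CPM, the narrowest relative spread among the CD249+ levels. All 4 lay above every CD249− library. Gli2 had a log2 fold change of 3.40 (SE 0.24, adjusted p = 1.11e-05), a 10.5-fold difference.

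Gli3 (ENSMUSG00000021318.15, chromosome 13, 15463235 to 15730026, plus strand, GRCm38), which acts mainly as a repressor when no ligand is present, rose less. The CD249− libraries of mice 2, 7, 8 and 10 held 3.98, 3.57, 5.09 and 5.37 CPM, the CD249+ libraries 11.7, 17.2, 10.9 and 16.5 CPM. These ranges did not overlap. Gli3 had a log2 fold change of 1.64 (SE 0.24, adjusted p = 0.000722).

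Gli1 (ENSMUSG00000025407.6, chromosome 10, 127329882 to 127341974, minus strand, GRCm38), an activator induced by the pathway, varied most between mice. For mice 2, 7, 8 and 10 the CD249− level was 6.47, 13.4, 7.42 and 14.5 CPM, and the CD249+ level 13.4, 39.9, 47.5 and 36.9 CPM. The CD249+ library of mouse 2 lay within the range of the CD249− libraries, so the groups overlapped, although Gli1 was higher in CD249+ cells of each mouse, by 0.99 to 2.60 in log2(CPM + 0.5). The log2 fold change was 1.72 (SE 0.40, adjusted p = 0.00854), and leaving out mouse 8 altogether ended the call (1.39, adjusted p = 0.0695, against adjusted p of 6.99e-05 to 0.0421 in the other 17 settings).

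The Gli genes were also compared as ratios within libraries. The log2 ratio of Gli3 to Gli2 went from 0.82 ± 0.336 to -0.83 ± 0.244 and that of Gli1 to Gli2 from 1.89 ± 0.861 to 0.32 ± 0.719 (SD, n = 4). The differences were -1.65 and -1.57, both lower in CD249+ cells of all 4 mice (exact permutation p = 0.0286 and adjusted p = 0.0429 for each). With a pseudocount of 2 CPM in place of 0.5 the differences were -1.35 for Gli3 to Gli2 (adjusted p = 0.0571) and -1.155 for Gli1 to Gli2 (adjusted p = 0.0686), and the calls of Hhip to Ptch1 and Boc to Cdon were lost as well (adjusted p = 0.0571 for each). Each of the 4 ratio calls rests on the smallest p of the design and was lost without most single libraries and when paired by mouse (adjusted p = 0.15, where 4 mice allow no p under 0.125), while the differences kept their direction.

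**Figure D2:**
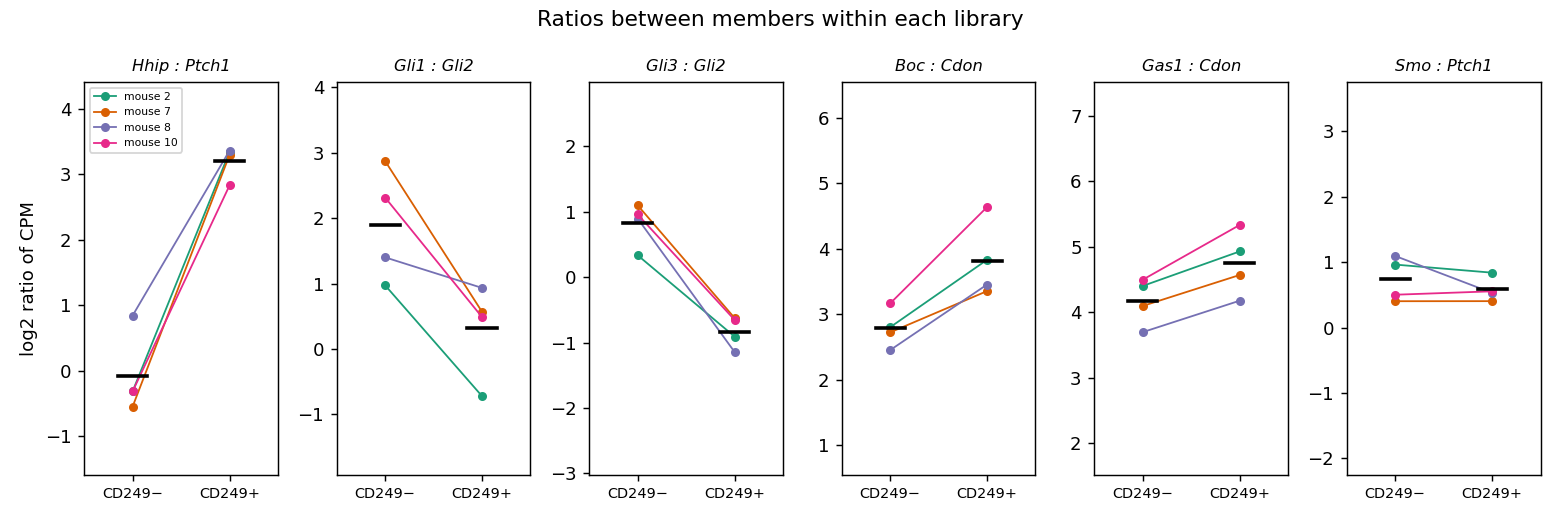
Log2 ratio of CPM between pairs of the 9 genes in the CD249− and CD249+ library of each mouse, all axes spanning 6 log2 units, with lines joining a mouse and black bars for means of 4. Hhip to Ptch1 and Boc to Cdon rise in every mouse, Gli1 to Gli2 and Gli3 to Gli2 fall in every mouse, and Smo to Ptch1 has no common direction.

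Compared per kilobase of annotated exon, the order of the levels changed between the fractions. In CD249− cells Gas1 led at 61.7 ± 19.4 CPM per kilobase, followed by Boc (15.8 ± 5.58), Smo (10.3 ± 1.40), Hhip (3.73 ± 1.35), Ptch1 (2.49 ± 0.742), Gli1 (2.09 ± 0.819), Cdon (1.26 ± 0.417), Gli3 (0.470 ± 0.0898) and Gli2 (0.345 ± 0.101, SD, n = 4). Neighbours in this order overlapped in range except Gas1 and Boc, Smo and Hhip, and Cdon and Gli3. In CD249+ cells Gas1 remained first at 138 ± 14.5 CPM per kilobase, and Hhip came next at 83.5 ± 20.7, ahead of Boc at 48.5 ± 9.67 and Smo at 21.5 ± 3.05, each separated from the next without overlap. Gli1 (6.89 ± 2.95), Ptch1 (5.75 ± 1.30) and Gli2 (3.64 ± 0.285) followed with overlapping neighbours, then Cdon (2.01 ± 0.804) and Gli3 (1.47 ± 0.337), which overlapped each other but not Gli2. Hhip thus moved from the fourth to the second place and Gli2 from the ninth to the seventh. With the longest transcript as the length, the order of means was the same in both fractions, but Hhip exceeded Ptch1 in CD249− cells of 1 mouse only.

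The CD249− libraries of mice 7 and 10 held more Gli1, Ptch1, Boc and Gas1 than those of mice 2 and 8. The mean log2(CPM + 0.5) of the collagen genes was also highest in these mice, at 8.97 and 9.35 against 8.17 and 8.72 in mice 2 and 8. Among CD249+ libraries that of mouse 2 was lowest for Gli1, Gli2, Ptch1, Hhip, Smo, Boc and Gas1, and its collagen mean was also the lowest, 10.1 against 10.8 in each of the other 3. The collagen genes are made by most fibroblasts, so they were used as a second scale.

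The reference was the mean log2(CPM + 0.5) of Col1a1, Col1a2, Col3a1, Col5a1, Col5a2, Col6a1, Col6a2 and Col6a3. It rose by 1.83, from 8.80 ± 0.495 to 10.6 ± 0.356 (SD, n = 4, exact permutation p = 0.0286). Relative to this mean 79.8% of all tested genes were lower in CD249+ cells and 1.5% were higher, with no overlap between the groups and with adjusted p under 0.05 over all genes. Against that background 2 of the 9 genes were higher, 4 were lower and 3 overlapped between the groups. Adjustment over all genes was chosen after the data were seen, in place of a planned adjustment over the 9 genes that gave the same 6 calls here but 0 with a pseudocount of 2 CPM and 0 whenever a single library was left out, where adjustment over all genes gave 5 and 4 to 5. Because most genes had the smallest p, adjustment over all genes changed that p little, from 0.0286 to 0.0351. A call in the main setting therefore says no more than that the groups did not overlap. The differences below are better read by their size and by the number of mice than by their adjusted p.

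Hhip rose relative to the collagen genes by 2.68 and Gli2 by 1.36, each in all 4 mice (exact permutation p = 0.0286, adjusted p = 0.0351 over all genes). With the median of the collagen genes in place of the mean, the difference of Gli2 was 0.85 and no longer called (adjusted p = 0.121), and it was 0.82 with a pseudocount of 2 CPM (adjusted p = 0.121). Without any single CD249+ library Gli2 gave 1.23 to 1.43 (adjusted p = 0.0659 to 0.0695), while Hhip, adjusted over all genes, kept its call without each single library. Gli1 (-0.21), Gli3 (-0.29) and Boc (-0.16) were not called (exact permutation p = 0.543, 0.343 and 0.257). With the median as the reference, Gli3 gave -0.81 and Boc -0.68, both called (adjusted p = 0.0319), and Gli1 gave -0.73 (adjusted p = 0.0915). By edgeR, Gli1 (1.72), Gli3 (1.64) and Boc (1.61) rose more than each collagen I, III and V gene of the reference. They rose less than each collagen VI gene, so these falls are relative to collagen VI and not to all collagen genes.

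Ptch1 (-0.62), Gas1 (-0.62), Smo (-0.78) and Cdon (-1.20) were lower relative to the collagen mean in all 4 mice (exact permutation p = 0.0286 and adjusted p = 0.0351 for each). The Gas1 call did not survive the removal of any of the CD249− libraries (adjusted p = 0.0655 to 0.0691), that of Smo the removal of CD249+ mouse 7 (-0.73, adjusted p = 0.0692), nor that of Cdon the removal of CD249+ mouse 10 (-0.93, adjusted p = 0.0694). With the collagen median these differences were larger, at -1.13 for Ptch1 and Gas1, -1.29 for Smo and -1.71 for Cdon. That median is of levels and follows Col6a1 and Col6a2, which rose by 2.37 and 2.23 by edgeR. The median log2 fold change of the 8 collagen genes was 1.52, below the rise of 1.83 in their mean. Neither the differences from the mean nor those from the median thus give the size against a typical collagen gene. By edgeR, Ptch1 (1.21), Gas1 (1.16), Smo (1.06) and Cdon (0.67) rose less than each of the 8, of which Col1a2 rose least (1.265, SE 0.33). For Ptch1, Gas1 and Smo the direction therefore depended on the scale: on the scale of all genes they were higher in CD249+ cells. Ptch1 relative to the collagen genes was nearly constant among CD249+ libraries, from -4.33 to -4.26.

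**Figure D3:**
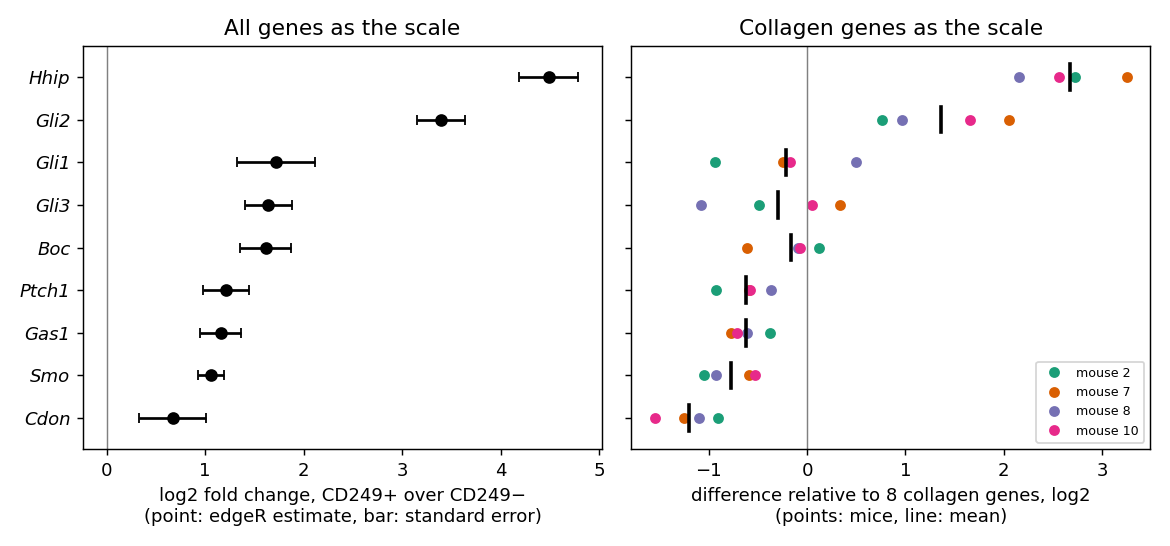
Left, log2 fold change of each gene between CD249+ and CD249− libraries (edgeR estimate, bars are standard errors). Right, the difference in log2 CPM relative to the mean of 8 collagen genes for each mouse (points) and its mean (black line); Hhip and Gli2 lie above 0 in both panels, while Ptch1, Gas1, Smo and Cdon lie above 0 on the left and below 0 on the right.

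For 4 of the genes, 1 of each role, the genes with the nearest profile were found among 9962 others with a mean of at least 10 CPM, by the root mean square difference of centred log2(CPM + 0.5) over the 8 libraries. Nearest to Gli1 were Wisp1 (0.184), the matricellular gene also called Ccn4, and Pdgfrl (0.216). Nearest to Hhip were Cyp2e1 (0.205), a cytochrome P450, the ligand gene Bmp5 (0.368) and the collagen prolyl hydroxylase gene P4ha3 (0.416). Boc lay nearest to the matrix genes Fbn1 (0.132), which encodes fibrillin, and Col3a1 (0.136), and to Clec11a (0.142). Smo lay nearest to Sec24d (0.0425), a coat protein of secretory vesicles, Fam114a1 (0.0944) and 9530068E07Rik (0.11). These distances describe the 8 libraries, which fall into the 2 sorted fractions, and any gene with a like fold change will lie close.

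The rest of the pathway was described from lists of ligands, surface proteins, transducers, targets and cilium genes. Of 8 genes for ligands and their release, 6 were tested, 1 rose and 5 were not called (median log2 fold change 0.33), a share that rose near the 16.9% of all tested genes. Shh was listed at 0 counts in 3 CD249− and 2 CD249+ libraries and reached 11 counts at most, and Ihh reached 9 at most, so neither passed the filter. Dhh, the third ligand, gave CD249− levels of 20.7, 19.6, 9.05 and 15.7 CPM for mice 2, 7, 8 and 10, and CD249+ levels of 13.1, 6.16, 6.58 and 3.29 CPM.

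Dhh was thus lower in CD249+ cells of each mouse, with overlap between the groups. Its log2 fold change of -1.16 was not called (adjusted p = 0.0551) but was called with mouse as a block (-1.25, adjusted p = 0.0154). Dhh was called also by DESeq2 (adjusted p = 0.0194), by limma-voom (0.0334), with library size only (0.0443), without the CD249− library of mouse 8 (0.0326), without the CD249+ library of mouse 2 (0.00879) and without both libraries of mouse 2 (0.0216). Endothelium is a known source of Dhh, and the endothelial markers fell alongside by a median of -1.46. Their part in the result was not tested.

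Scube2, which encodes a secreted protein that helps release hedgehog ligand from the cells that make it, was the 1 member of this list that rose. Mice 2, 7, 8 and 10 had 11.6, 11.4, 4.50 and 11.4 CPM on the CD249− side and 269, 181, 131 and 236 CPM on the CD249+ side. The groups were far apart, as for Hhip. Scube2 had a log2 fold change of 4.39 (adjusted p = 1.74e-05). Its relative Scube1 (-0.32, adjusted p = 0.197) and Scube3 (1.28, adjusted p = 0.177), the acyltransferase gene Hhat (-0.12, adjusted p = 0.884) and the release gene Disp1 (0.78, adjusted p = 0.182) were not called, though Disp1 was with mouse as a block (0.96, adjusted p = 0.0445).

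Among other surface genes, Gpc3, a glypican that binds hedgehog ligand and restrains signalling, rose from a mean of 272 ± 38.8 CPM in CD249− cells to 739 ± 124 CPM in CD249+ cells (SD, n = 4), a log2 fold change of 1.44 (edgeR adjusted p = 0.000144). The glypican gene Gpc6 and the endocytic receptor gene Lrp2 were not called, and Gpc5 was listed at 0 in every library.

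Of 20 intracellular transducers tested, 4 rose, 1 fell and 15 were not called, with a median log2 fold change of 0.16. Over all tested genes 16.9% rose and 13.9% fell, so the share of transducers that rose was near the background. Evc2 (1.72, adjusted p = 0.000151) and Evc (1.31, adjusted p = 0.000257), which form a complex that passes the signal from Smo within the cilium, rose most. Spop, a ubiquitin ligase adaptor that targets Gli proteins, rose by 0.31 (adjusted p = 0.0266), and Adrbk1, a kinase that acts on Smo, fell by 0.76 (adjusted p = 0.00165). The Gli-binding inhibitor gene Sufu (-0.15, adjusted p = 0.357) and the kinesin gene Kif7 (0.16, adjusted p = 0.798) were not called.

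The count of transducers that rose was 2 when libraries were scaled by size alone, and also on leaving out CD249− mouse 7, CD249− mouse 10 or the whole of mouse 7, 8 or 10; Spop was among the calls lost. Csnk1a1 (-0.22, adjusted p = 0.0497) and Btrc (-0.31, adjusted p = 0.0217), genes of the Gli-degrading machinery, were called lower with mouse as a block, which gave 3 lower. Library size only also gave 3 lower, DESeq2 gave 2, and leaving out the CD249+ library of mouse 2 gave 2.

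Among 11 genes reported as hedgehog targets 6 rose, 3 fell and 2 were not called, with a median of 0.97, beside 16.9% of all tested genes that rose and 13.9% that fell. Nr2f2, an orphan nuclear receptor gene, rose by 2.14 (adjusted p = 2.99e-05), the forkhead gene Foxf2 by 4.34 (adjusted p = 3.90e-05), the small GTPase gene Rab34 by 1.55 (adjusted p = 0.000142) and the ligand gene Bmp4 by 1.67 (adjusted p = 0.000188). The genes that fell were Foxf1 (-1.06, adjusted p = 0.00422), which lung endothelium also expresses, the cyclin gene Ccnd1 (-1.13, adjusted p = 0.0283) and Mycn (-0.85, adjusted p = 0.0108). With mouse 8 or mouse 10 left out, 1 target was called lower and 6 were called higher. Bcl2 and Ccnd2 were not called, and many of these genes answer to other signals as well.

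Of 22 primary cilium genes 6 rose and 16 were not called, with a median of 0.43, beside 16.9% of all tested genes that rose. Cc2d2a (1.15, adjusted p = 0.00219), B9d1 (1.03, adjusted p = 0.0138) and Rpgrip1l (1.31, adjusted p = 0.0208), parts of the transition zone at the base of the cilium, rose with the transport gene Ift122 (0.65, adjusted p = 0.0155). For the transport gene Ift88 the CD249− mean was 5.02 ± 0.376 CPM and the CD249+ mean 5.31 ± 1.64 CPM (SD, n = 4), with an edgeR adjusted p = 0.864. The count that rose was 1 with mouse 7 left out and 2 with mouse 10 left out. Rpgrip1l was not called when CD249+ mouse 7 (adjusted p = 0.0587) or any of mice 2, 7 and 10 was left out (0.0651 to 0.0852). B9d1 was not called with mouse 7 (0.0752) or mouse 8 (0.0867) left out, nor Ift122 with mouse 7 (0.0632), mouse 8 (0.0621) or mouse 10 (0.0811) left out.

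**Figure D4:**
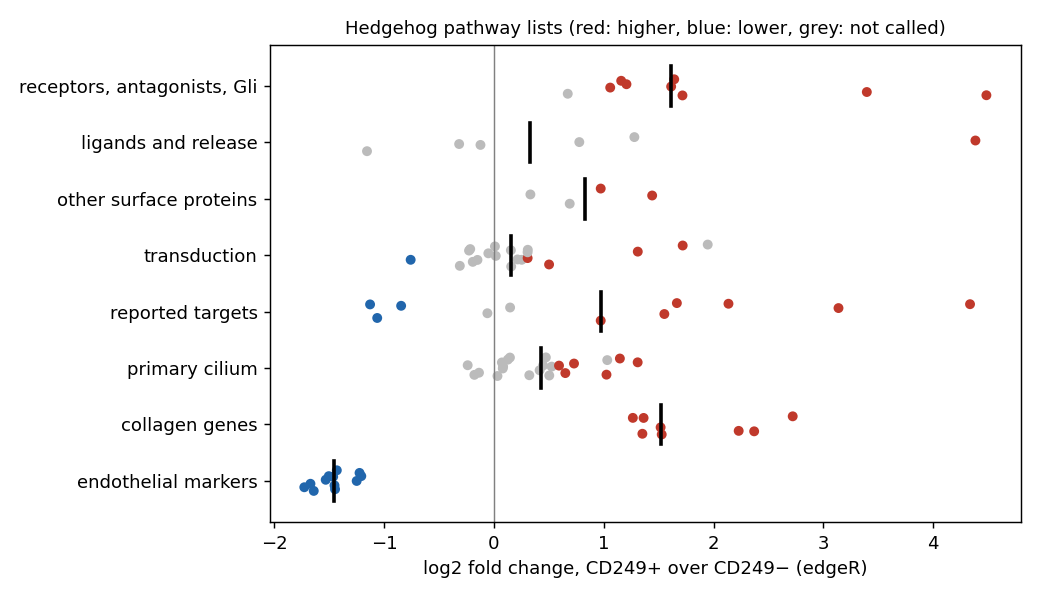
Log2 fold change of each tested gene in 6 hedgehog lists, the collagen reference and the endothelial markers, with black bars for list medians; points are spread vertically for legibility. The 9 genes have a median of 1.61 and the transducers one of 0.16, while the collagen genes lie to the right of 0 and the endothelial markers to the left.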

How the data were processed

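Total RNA of sorted cells (10 ng input, oligo(dT)-primed SMART-Seq V4, Nextera XT, single reads of 75 bases) was sequenced, per the labels' protocols. The deposited table holds expected counts per gene, since 12% of its values are not whole, with 1 column per library and totals of 23011383 to 31906414. Tools listed, with no roles, in the submitters' processing notes are RSEM 1.2.28, STAR 2.6.1, bcl2fastq 2.20, R 3.6.3 and DESeq2 1.26.0. The notes list the human build GRCh38 although the genes are murine, and which build was used for counting is therefore not stated. These libraries do not mark strand, so overlapping antisense reads cannot be told apart, and amplified reads are not independent molecules. Both fractions share a mouse, so the numbers pair the libraries; across genes, deviations from group means had correlations of 0.216 to 0.383 within a mouse and -0.269 to 0.0663 between mice.

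The 92 spike-in entries, all 0, were left out, counts were rounded, and genes were filtered with filterByExpr, scaled by TMM and tested with edgeR 4.0.16 (R 4.3.3) with group as the only term, two-sided, Benjamini-Hochberg over 14524 genes. CPM use TMM-scaled totals. Ratios between genes and levels relative to collagen genes used log2(CPM + 0.5) and exact permutation tests; the latter were to be adjusted over the 9 members. That was replaced by adjustment over all tested genes after the results had been seen, because p-values over a chosen list alone were not to be given; the calls under the planned adjustment were fewer in 9 of the 13 settings compared, and both counts are given. Alternatives were DESeq2 1.42.0, limma-voom 3.58.1, RLE factors, library size only, no filter, mouse as a block, leaving out libraries or mice, other pseudocounts and the collagen median. On simulated data for this comparison over 14524 genes edgeR recovered 80 of 100 genes changed 4-fold and 50 of 100 changed 2-fold, with 2 false calls. The simulated libraries were independent, and no other genes were changed. In the data the fractions share mice and 30.8% of genes were called, so the simulation gives no error rate for them.

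The members and lists were chosen with earlier results of these data known. The text names all 9 members, Enpep, the 3 nearest genes to Gli1, Hhip, Smo and Boc (some results that this rule names are not reported here), all ligand-list genes, up to 4 called members with the smallest p of each other hedgehog list and up to 3 abundant members of cell type lists. Other names (the remaining called or uncalled list members) were added after their values were seen. Lists of alveolar, ductal and adventitial fibroblast, pericyte, smooth muscle and blood markers are given among the other observations. Gene positions and exon lengths are from GENCODE M21 on GRCm38, matched by identifier without version.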

Additional observations from a re-analysis of the deposited data

Results flagged for a closer look

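Dixon's test at its 95% critical value was applied to 50 groups of 4 values (the 9 genes, Enpep, the ratios and the values relative to collagen genes, in each fraction), of which chance flags about 1 in 20, and 4 were flagged. Groups that share a gene are not independent. Ptch1 in the CD249+ library of mouse 2, at 53.9 CPM, stood apart from 90.1 to 91.4 CPM in the other 3 CD249+ libraries. In CD249− cells the log2 ratio of Hhip to Ptch1 was 0.84 in mouse 8, apart from -0.55 to -0.32 in the others. In CD249+ cells the same ratio was 2.83 in mouse 10, apart from 3.29 to 3.36. Hhip relative to the collagen genes was -1.49 in the CD249+ library of mouse 10, apart from -0.99 to -0.94.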

How the results depend on the processing

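Of the 9 genes, 8 were called higher in 17 of 18 alternative settings and 7 without both libraries of mouse 8, where Gli1 was lost; no member changed direction on the scale of all genes. The replicate block by mouse changed no call among the 9 (Cdon 0.66, adjusted p = 0.0561) and gave 5298 calls over all genes against 4468. Leaving out libraries or mice gave 2978 to 4458 calls over all genes, the fewest without mouse 8. Library size only gave 2106 higher and 2690 lower genes against 2455 and 2013. For the ratios a pseudocount of 2 CPM gave 3.26 (Hhip to Ptch1), -1.155 (Gli1 to Gli2), -1.35 (Gli3 to Gli2) and 1.08 (Boc to Cdon), none of them called (adjusted p = 0.0571 to 0.0686 by exact permutation). Paired by mouse they were 3.29, -1.57, -1.65 and 1.03, the same means by construction, with a sign-flip p of 0.125, the smallest that 4 mice allow, and the same test called 0 members relative to collagen genes. Without single libraries these ratios ran from 3.14 to 3.601, -1.88 to -1.23, -1.82 to -1.55 and 0.76 to 1.19, and Gas1 to Cdon from 0.39 to 0.77, called at 0.77 without the CD249+ library of mouse 8. Relative to collagen genes, where the adjustment over all genes was chosen after seeing the data, 6 members were called in the main setting, 5 with a pseudocount of 2 CPM, 7 with the collagen median and 4 to 5 without single libraries. Under the planned adjustment over the 9 members these counts were 6, 0, 7 and 0, and 0 when paired by mouse. Without single libraries Gli1 relative to collagen genes ran from -0.35 to 0.0061, and without libraries or mice Hhat, not called, ran from -0.53 to 0.21. The lowest member count was 40 (Gli2), and the Gli2 results on log2(CPM + pseudocount) moved with the pseudocount; Shh and Ihh, with at most 11 and 9 counts, were too low to test.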

Other observations

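Fibroblast and mural markers outside the hedgehog pathway differed between the fractions as well, and are given as values. All 8 alveolar fibroblast markers rose in CD249+ cells (median log2 fold change 3.69), from a sum of 477.6 to 955.4 CPM to a sum of 5313 to 11180 CPM, with Inmt, Npnt and Limch1 most abundant. All 7 ductal myofibroblast markers other than Hhip rose (median 2.75), with Pdgfra, Enpp2 and Mustn1 most abundant over both fractions together. Of 8 pericyte markers 7 rose and Rgs5 was not called (median 2.16), and of 6 smooth muscle markers 5 rose (median 1.72), led by Acta2, Myh11 and Tagln. Adventitial fibroblast markers moved both ways, with 1 of 7 higher (Col14a1), 3 lower (Dpp4, Ly6a and Sfrp4) and 3 not called (median -0.21), among them Dcn, the most abundant. Of 8 platelet and red cell genes 4, all of platelets, fell. Most of these markers were already known from earlier analyses of these data to differ, so they do not support the hedgehog results independently.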
